A study of Mus musculus with 2 samples.

Results

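The cyclins, cyclin-dependent kinases (Cdks) and Cdk inhibitors that govern passage through G1 were examined in mouse NIH 3T3 cells, an immortalised embryonic fibroblast line. Members were the array probe sets annotated with exactly 1 gene symbol out of Ccnd1, Ccnd2, Ccnd3, Ccne1, Ccne2, Cdk2, Cdk4, Cdk6, Cdkn1b and Cdkn2c. These were 21 probe sets for 10 genes, out of 22626 probe sets without controls and 12393 genes with a symbol. No probe set naming a member also named another gene. One culture received the pHA-CMV-ATCE1-C-del plasmid, which expresses ATCE1 without its C terminus, and the other received the pHA-CMV vector alone. ATCE1, a CREB-type bZIP factor, is the product of Creb3l4, and the truncated protein is described as the nuclear form. Both plasmids were introduced with Lipofectamine, and total RNA was taken 48 hours later. There was 1 array per culture, so replicate error is unknown throughout and no difference was tested. The sources used here do not give the share of cells that took up plasmid, so each signal averages over transfected and untransfected cells.

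As background, mitogens induce the D-type cyclins, which bind Cdk4 or Cdk6 and begin to phosphorylate the retinoblastoma protein. Release of E2F factors then switches on the E-type cyclins, which activate Cdk2 and complete the entry into S phase. Inhibitors of the Cip/Kip family, such as p27 (Cdkn1b), bind cyclin-Cdk complexes, while those of the INK4 family, such as p18 (Cdkn2c), bind Cdk4 and Cdk6 themselves. In fibroblasts cyclin D1 is the classical serum-induced member, and its gene is a known target of AP-1 and CREB-type factors.

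The values were MAS5 signals as deposited, on a linear scale. A signal below its own array's median after scaling, 77.3 for ATCE1-C-del and 76.0 for empty vector, was treated as not measured, since low MAS5 signals vary by large factors. By this floor 15 of the 21 member probe sets were measured on both arrays, 0 on only 1 array and 6 on neither. Each ratio is log2 of ATCE1-C-del over the empty vector, so a positive value means a higher signal with ATCE1-C-del. Over all 10996 probe sets measured on both arrays the middle 95% of log2 ratios lay between -0.50 and 0.46. The transfected gene could not be checked, as Creb3l4 read 18 with ATCE1-C-del against 20.7 with the empty vector, under both floors. Of 9 fibroblast markers 8 were measured, Fap being the exception, whereas 0 of 6 epithelial, 0 of 4 endothelial and 0 of 4 muscle markers and 2 of 5 macrophage markers reached the floor, of which Cd68 did so only with ATCE1-C-del. The 18 hybridisation control probe sets had a mean log2 ratio of -0.27 as deposited. Scaling to this mean in place of the trimmed mean of all probe sets lifts every ratio below by 0.28 and moves the median of all measured genes to 0.27. The ratio of 3' to 5' signal, a measure of RNA integrity, for Actb was 1.07 with ATCE1-C-del against 1.12 with the empty vector, and for Gapdh 0.902 with ATCE1-C-del against 0.772 with the empty vector.

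Cyclin D1 gave a higher signal with ATCE1-C-del on 2 of its 3 probe sets. Here as in all bulk RNA, more cells in a given phase and more RNA per cell cannot be told apart. Probe set 1448698_at of Ccnd1 read 519.7 on the array of ATCE1-C-del cells and 413.4 on that of empty vector cells, a log2 ratio of 0.33 (1.25-fold higher). Probe set 1417419_at read 378.8 with ATCE1-C-del against 287.0 with the empty vector, a log2 ratio of 0.40 (1.32-fold higher). The remaining one, 1417420_at, read 392.2 with ATCE1-C-del against 412.4 with the empty vector, a log2 ratio of -0.08 that turned to 0.20 with scaling to the hybridisation controls. All 3 are annotated with the same RefSeq transcript, so they are repeated readings of the same RNA and not separate observations. Their mean log2 ratio was 0.22 ± 0.26 (SD over 3 probe sets), an average smaller than its spread. The span from lowest to highest of 0.47 was reached or passed by 22.9% of the 542 genes with 3 measured probe sets, whose median span was 0.30.

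Cyclin D2, a second D-type cyclin that fibroblasts express, lay close to level. It had 7 probe sets, of which 5 were measured on both arrays. Probe set 1434745_at read 1482.7 with ATCE1-C-del against 1540.0 with the empty vector, and 1416122_at read 1543.6 with ATCE1-C-del against 1409.9 with the empty vector. These log2 ratios of -0.06 and 0.13 differ in sign. Probe set 1430127_a_at read 911.8 with ATCE1-C-del against 949.1 with the empty vector. The corresponding signals of 1455956_x_at were 533.8 with ATCE1-C-del against 494.4 with the empty vector, and those of 1448229_s_at were 162.9 with ATCE1-C-del against 171.9 with the empty vector. In all, 3 of the 5 lay below 0 and 2 above it, from -0.08 to 0.13, and with scaling to the hybridisation controls all 5 lay above 0. The mean log2 ratio of Ccnd2 was 0.01 ± 0.10 (SD over 5 probe sets). Its span of 0.21 was narrow for a gene with 5 measured probe sets, since 90.0% of the 60 such genes spanned at least as much. The other 2 probe sets were under both floors, 1416123_at at 41.8 with ATCE1-C-del against 30.4 with the empty vector, and 1416124_at at 73.8 with ATCE1-C-del against 65.6 with the empty vector.

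Cyclin D3, the D-type cyclin most associated with lymphoid and differentiating cells, was read by the single probe set 1415907_at. It gave 547.4 with ATCE1-C-del against 538.0 with the empty vector, a log2 ratio of 0.02, which became -0.0042 when the arrays were set to equal medians. The signals thus differed by 1.01-fold, well inside the spread of Ccnd1 probe sets among themselves. Of the D-type cyclins, then, only Ccnd1 had probe sets past 1.2-fold, except in 2 alternatives. With scaling to the hybridisation controls Ccnd2 and Ccnd3 had them too, and with a 25th percentile floor the dim Ccnd2 probe set 1416123_at passed 1.2-fold.

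**Figure D1:**
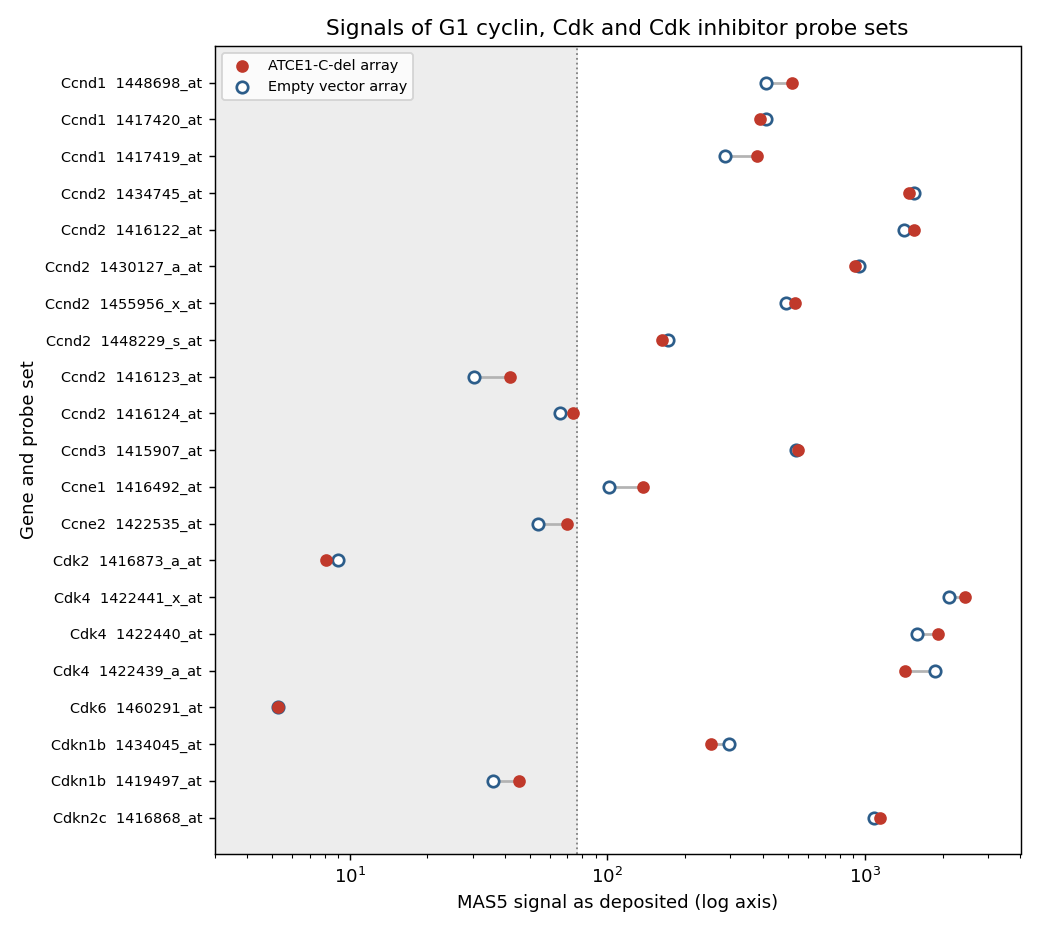
MAS5 signals as deposited (log axis) of the 21 probe sets of the 10 genes, with the ATCE1-C-del array as filled red points and the empty vector array as open blue circles, and the range below the empty vector floor of 76.0 shaded. The widest gaps above the floor are those of Ccnd1 1417419_at, Ccne1 and Cdk4 1422439_a_at, and 6 probe sets lie in the shaded range on both arrays.

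Cyclin E1, which activates Cdk2 at the G1/S boundary and is itself an E2F target, had the highest ratio of all members. Its single probe set, 1416492_at, read 137.7 with ATCE1-C-del against 101.5 with the empty vector, a log2 ratio of 0.44 (1.35-fold higher). This ratio was higher than 97.0% of the 10996 ratios measured on both arrays. The signals are low, however, and for probe sets of like signal (the lowest of 5 equal bins by mean signal) the middle 95% ran from -0.57 to 0.55, which holds the Ccne1 value. Cyclin E2, its close relative, read 69.7 with ATCE1-C-del against 53.7 with the empty vector on 1422535_at, both under the floor, so no ratio is given.

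Cdk4, the main catalytic partner of the D-type cyclins in fibroblasts, gave bright signals whose directions did not match. Probe set 1422441_x_at read 2430.1 with ATCE1-C-del against 2108.8 with the empty vector, a log2 ratio of 0.20 (1.15-fold higher). Probe set 1422440_at read 1908.2 with ATCE1-C-del against 1581.3 with the empty vector, a log2 ratio of 0.27 (1.2-fold higher). Against both stood 1422439_a_at, at 1429.2 with ATCE1-C-del against 1861.7 with the empty vector, a log2 ratio of -0.39 (1.31-fold lower). This last value was the lowest of all members and the only one outside the middle 95% of probe sets of like signal, which ran from -0.34 to 0.33. The 3 probe sets carry the same RefSeq transcript in the annotation, and 2 of them have a name ending (_a_at, _x_at) that marks possible matches to several transcripts. Their mean log2 ratio was 0.03 ± 0.36 (SD over 3 probe sets). The span of 0.65 was reached or passed by 44 of the 542 genes with 3 measured probe sets (8.12%). Because each of the 3 readings comes from the same pair of arrays, array scaling cannot remove this disagreement, and no direction can be given for Cdk4.

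Neither of the other kinases was measured. Cdk2, the partner of the E-type cyclins, read 8.1 with ATCE1-C-del against 9.0 with the empty vector on 1416873_a_at. Cdk6, the alternative partner of the D-type cyclins, read 5.3 on both arrays with 1460291_at. Both probe sets lie far below the floor, and a signal under the floor does not show that a transcript is absent.

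Among the inhibitors, p27 read lower and p18 was near level. Cdkn1b, which encodes the Cip/Kip inhibitor p27, read 252.5 with ATCE1-C-del against 295.3 with the empty vector on 1434045_at. The log2 ratio was -0.23 (1.17-fold lower), short of 1.2-fold, and it turned to 0.05 with scaling to the hybridisation controls. Its second probe set, 1419497_at, was under both floors, at 45.3 with ATCE1-C-del against 36.1 with the empty vector, and its signals went the other way. Cdkn2c, which encodes the INK4 inhibitor p18, read 1138.0 with ATCE1-C-del against 1081.9 with the empty vector on 1416868_at, a log2 ratio of 0.07 (1.05-fold higher).

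Counted together, 4 of the 15 measured probe sets were higher with ATCE1-C-del by 1.2-fold or more, and 1 was lower by as much. Over all 11631 probe sets measured on at least 1 array, 10.7% were higher by 1.2-fold or more, and 12.8% lower by as much. The 4 higher ones belong to only 3 genes, as 2 read Ccnd1, 1 read Ccne1 and 1 read Cdk4, and the lower one also read Cdk4. None of the 15 reached 1.5-fold, a size that 1.07% of all measured probe sets passed upward and 1.43% downward. The members above 0 numbered 9 of 15, where 49.8% of all measured probe sets were above 0. The median log2 ratio of the 15 was 0.07, against -0.00093 for all measured probe sets.

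**Figure D2:**
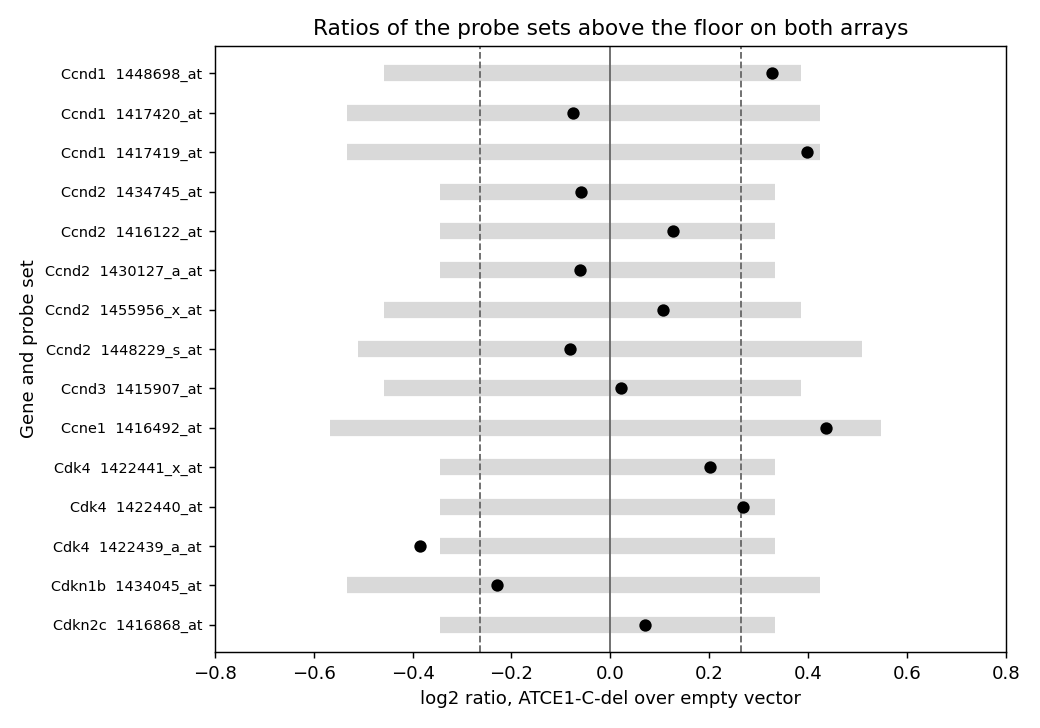
Log2 ratio (ATCE1-C-del over the empty vector) for the 15 member probe sets measured on both arrays (points), with dashed lines at 1.2-fold and grey bars giving the middle 95% of all probe sets in the same of 5 signal bins. All points but Cdk4 1422439_a_at (-0.39) lie on their grey bar, and the probe sets of Ccnd1 and of Cdk4 fall on both sides of 0 (with scaling to the hybridisation controls, which shifts all points by 0.28, those of Ccnd1 all lie above 0).

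By gene, with the brightest probe set standing for each, 7 of the 10 members were measured. Of these 5 lay above 0 and 2 below, where 48.0% of all 6807 measured genes lay above 0. Those higher by 1.2-fold or more were Ccnd1 and Ccne1, 2 of 7, and 0 were lower by as much. Over all measured genes 9.21% were higher by 1.2-fold or more, and 12.7% lower by as much. No member gene reached 1.5-fold, which 0.911% of all measured genes passed upward and 1.12% downward. The median log2 ratio over the 7 genes was 0.07, against -0.01 for all measured genes. Only 3 of the 7 genes had more than 1 measured probe set, namely Ccnd1, Ccnd2 and Cdk4, and each of these had readings on both sides of 0, although with scaling to the hybridisation controls this held only for Cdk4. For the 2451 genes with at least 2 measured probe sets, the ratios of the 2 brightest were compared. Their differences gave an SD of 0.20 in log2 ratio per probe set. The ratios of Ccnd2, Ccnd3 and Cdkn2c lay within this spread of 0, that of Cdk4 about equalled it, and those of Ccne1, Ccnd1 and Cdkn1b were larger. This spread was pooled over all signal levels. Against probe sets of like signal, the ratios of Ccne1, Ccnd1 and Cdkn1b lay inside the middle 95%. The SD of 0.20 mixes probe set choice with the noise of each reading. It holds no error shared by all probe sets of a gene, such as that between cultures. The Ccnd1 probe sets alone had an SD of 0.26.

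**Figure D3:**
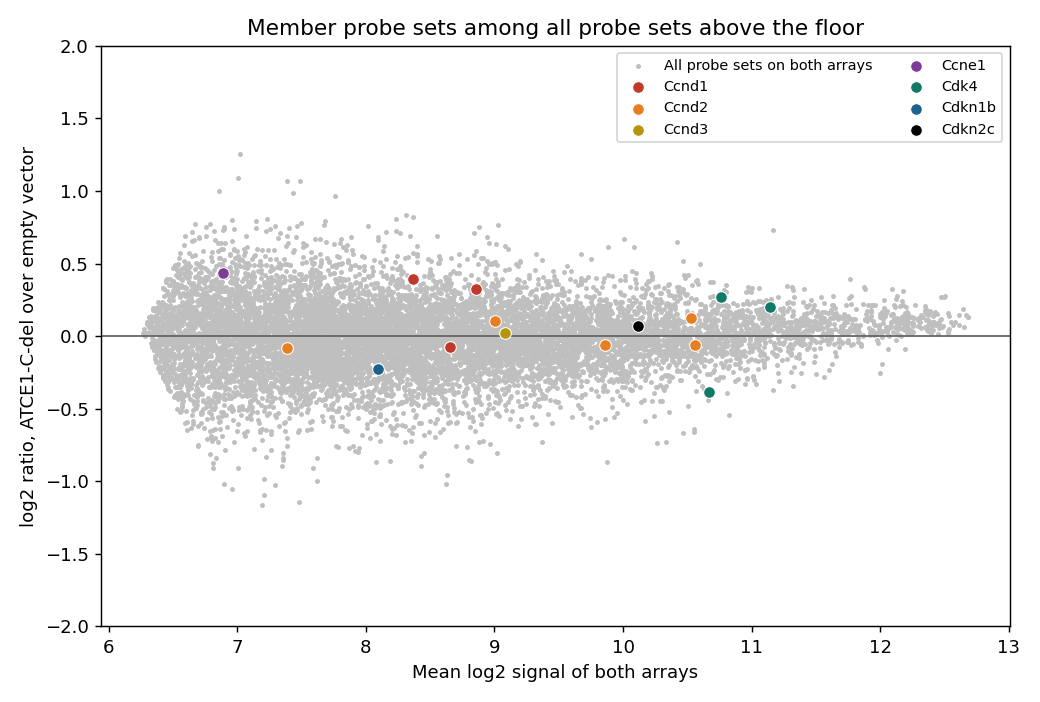
Log2 ratio (ATCE1-C-del over the empty vector) against the mean log2 signal of both arrays, for all 10996 probe sets measured on both arrays (grey, 2 lying outside the axis) and for the 15 member probe sets (coloured by gene). The member points lie inside the grey cloud, with Ccne1 at its dim end and Cdk4 1422439_a_at near the cloud's lower edge among bright probe sets.

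Differences between genes on the same pair of arrays do not depend on the scaling by a constant. The pairs below were picked after their values were seen. The log2 ratio of Ccne1 exceeded that of Cdkn1b by 0.67, and that of Ccnd1 on its brightest probe set exceeded that of Cdkn1b by 0.56. With the Ccnd1 probe set 1417420_at (-0.08) the latter difference is smaller. The other Cdkn1b probe set, under both floors, had the higher signal with ATCE1-C-del. Ccnd1 exceeded Ccnd3 by 0.31, a difference that the third Ccnd1 probe set does not share. The replicate error of these differences is unknown.

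Other genes of the G1/S pathway were taken from lists of textbook roles, chosen with earlier results of these data known. Beside the counts below, 48.0% of all measured genes were above 0, 9.21% were higher by 1.2-fold or more and 0.911% by 1.5-fold or more. Of the genes that E2F factors switch on at S phase, 13 were measured on both arrays. On the brightest probe set of each gene all 13 were above 0, with a median log2 ratio of 0.39, and 10 were higher by 1.2-fold or more. Another 2, Cdc6 and Orc1, reached the floor only on the ATCE1-C-del array, which fixes their direction, and are not counted. The 13 included the replicative helicase subunits Mcm2 (0.61), Mcm4 (0.53) and Mcm5 (0.51) and the thymidine kinase Tk1 (0.45) in log2 ratio, although a second Mcm2 probe set stood at -0.45. Outside the naming rule, an Mcm7 probe set stood at -0.16, and other probe sets of Mcm6 (0.02) and Mcm3 (0.03) lay near 0. The remaining other probe sets of the 13 lay above 0. The cyclins and Cdk of S, G2 and M phase were above 0 in 4 of 4 measured genes, with a median of 0.40. These were cyclin F (Ccnf) at a log2 ratio of 0.49, cyclin A2 (Ccna2, also on the E2F target list) at 0.42, Cdk1 at 0.38 and cyclin B2 (Ccnb2) at 0.22. The signals of Cdk1 were 1728.9 with ATCE1-C-del against 1326.0 with the empty vector, and those of Ccna2 were 1092.2 with ATCE1-C-del against 811.8 with the empty vector. Of the G1 members, Ccne1, 2 probe sets of Ccnd1 and 1 of Cdk4 lay in the range of these 4 genes, while the G1 median of 0.07 was below it.

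Pocket proteins, E2F and DP factors had 6 of 8 measured genes above 0 and a median log2 ratio of 0.18. E2f4, the E2F most abundant in resting cells, was 1.98-fold higher at 243.8 with ATCE1-C-del against 122.6 with the empty vector, on a single probe set. E2f8, a repressor E2F, stood at a log2 ratio of 0.45, and E2f5 at 0.36 with its second probe set at 0.37. The pocket protein p130 (Rbl2), which binds E2f4 in resting cells, stood at -0.20 with its second probe set at -0.23. With scaling to the hybridisation controls, which adds 0.28 to each ratio, both Rbl2 values turn positive.

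Enzymes that activate or restrain Cdks had 5 of 8 genes measured on both arrays above 0 and a median log2 ratio of 0.07. Cdc25c, a phosphatase acting at mitotic entry, is not among these 8. It read 110.5 with ATCE1-C-del against 70.5 with the empty vector, the second signal being under the floor. Being measured only with ATCE1-C-del fixes its direction, and its ratio to the floor was 1.45-fold. The inhibitory kinase Pkmyt1 stood at a log2 ratio of 0.23, the phosphatase Cdc25b at 0.20 and the inhibitory kinase Wee1 at -0.17. Cdc25a, the phosphatase that acts on Cdk2 at G1/S, fell outside the naming rule and stood at 0.16. As with all small negative ratios here, that of Wee1 turns positive with scaling to the hybridisation controls.

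Genes for the turnover of G1 cyclins and p27 were split, with 4 of 9 measured genes above 0 and a median log2 ratio of -0.01. Skp2, the F-box protein that targets p27, read lower on its brightest probe set, at 280.6 with ATCE1-C-del against 375.6 with the empty vector (-0.42). Its other 4 measured probe sets stood at log2 ratios of 0.76, 0.62, 0.12 and 0.06, so no direction can be given for Skp2 either. Fbxw7, the F-box protein that targets cyclin E, stood at 0.32 with its second probe set at 0.06. The ubiquitin conjugase Cdc34 stood at 0.32, and Cks2 at 0.24 with its other probe set at 0.22.

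Of 15 genes known to act on Ccnd1 transcription and measured on both arrays, 9 were above 0, with a median log2 ratio of 0.05, and 1 passed 1.5-fold. This was the AP-1 subunit Fosl1, 1.75-fold higher at 398.8 with ATCE1-C-del against 227.5 with the empty vector. Its other probe set read 78.0 with ATCE1-C-del against 44.9 with the empty vector. The first of these signals was just above the floor and the second under it, a log2 ratio of 0.04 after flooring. The AP-1 subunit Fos was measured only with ATCE1-C-del, which fixes its direction, and so was not counted. It read 124.7 with ATCE1-C-del against 53.5 with the empty vector, the second being under the floor. Its ratio to the floor was 1.64-fold. The growth factor-induced gene Egr1 stood at 0.43 and Myc at 0.37. Creb1, outside the naming rule, stood at -0.30. Its second probe set stood at 0.44 or more, its empty vector signal being under the floor, which fixes its direction.

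Of the other Cdk inhibitors 2 of 5 on the array were measured. Cdkn2d, which encodes the INK4 inhibitor p19, stood at a log2 ratio of 0.29, at 266.7 with ATCE1-C-del against 217.1 with the empty vector. Cdkn1a, which encodes the Cip/Kip inhibitor p21, stood at -0.08 with its second probe set at 0.01. Cdkn1c, Cdkn2a and Cdkn2b were under the floor on both arrays, and NIH 3T3 cells are known to have lost the Cdkn2a locus. Cyclins and Cdks with roles outside the G1/S core had 10 of 16 measured genes above 0 and a median of 0.05. They ran from Cdk8, a Mediator kinase, at -0.44 and Ccnt2 at -0.35 to Ccng1, a p53-induced cyclin, at 0.44, with Ccng2, linked to growth arrest, at -0.20. The other probe set of Ccnt2 stood at 0.10, and those of Ccng1 at 0.28 and 0.17.

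**Figure D4:**
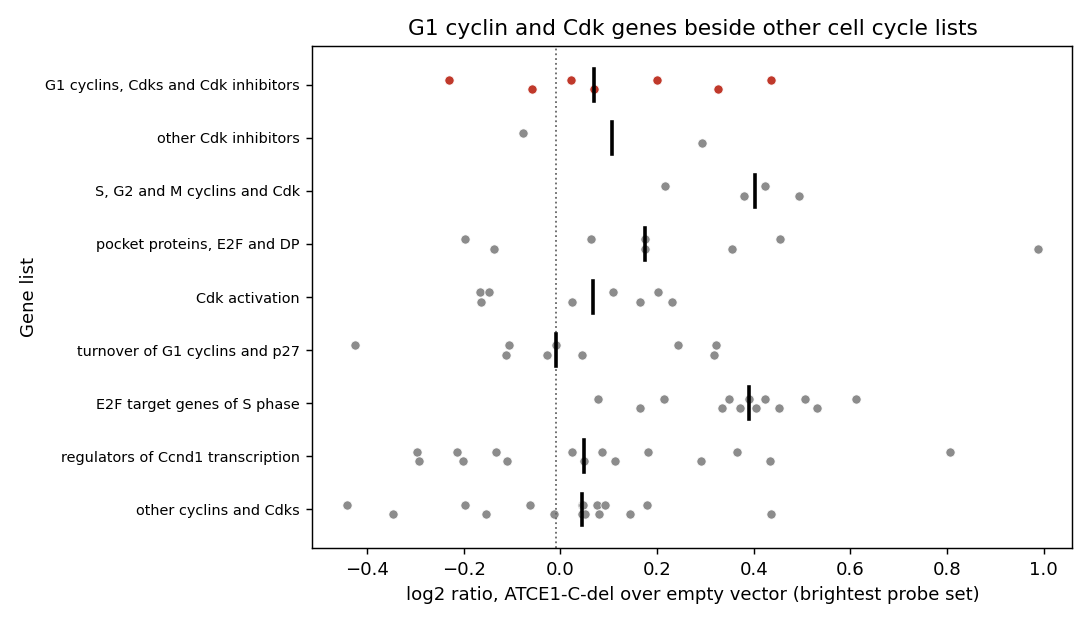
Log2 ratio (ATCE1-C-del over the empty vector) for each gene measured on both arrays (points, brightest probe set) of the G1 genes (red) and of 8 other lists (grey), with a bar at each list's median and a dotted line at the median of all measured genes (-0.01). The G1 genes run from -0.23 to 0.44 around a median of 0.07, whereas all 13 E2F target genes and all 4 S, G2 and M genes lie above 0.

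Promoter sequence from RefSeq (build GRCm38.p6) was matched to 7 of the 10 genes, with 9 transcription starts. Ccnd1, Ccnd2 and Ccne2 were not analysed here. The 250 bases upstream of each start were searched on both strands. The motifs were the full cAMP response element (CRE) TGACGTCA, its shorter core TGACG, the E-box CACGTG, the GC box GGGCGG and an E2F site written as TTTGGCGC, TTTCGCGC, TTTCCCGC or TTTGCCGC. The full CRE holds the core on both strands, and no matches overlapped in the member windows. The windows of Ccne1, Cdk4 and Cdkn1b are shown because these were the genes with a window whose signals differed most, and capitals mark the E-box, GC box and CRE core matches. Ccne1 lies at chr7:38107491-38107740 on the minus strand, Cdk4 at chr10:127063285-127063534 on the plus strand and Cdkn1b at chr6:134920151-134920400 on the plus strand.
Ccne1: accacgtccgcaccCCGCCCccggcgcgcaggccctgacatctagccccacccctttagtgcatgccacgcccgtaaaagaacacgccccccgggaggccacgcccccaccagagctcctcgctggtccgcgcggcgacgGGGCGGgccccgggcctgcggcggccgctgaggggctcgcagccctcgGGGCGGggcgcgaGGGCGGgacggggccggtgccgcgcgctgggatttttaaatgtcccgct
Cdk4: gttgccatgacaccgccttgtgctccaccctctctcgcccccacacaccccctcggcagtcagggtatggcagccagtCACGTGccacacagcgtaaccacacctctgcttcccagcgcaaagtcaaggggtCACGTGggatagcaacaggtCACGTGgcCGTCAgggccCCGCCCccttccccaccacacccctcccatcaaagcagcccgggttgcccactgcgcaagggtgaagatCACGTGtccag
Cdkn1b: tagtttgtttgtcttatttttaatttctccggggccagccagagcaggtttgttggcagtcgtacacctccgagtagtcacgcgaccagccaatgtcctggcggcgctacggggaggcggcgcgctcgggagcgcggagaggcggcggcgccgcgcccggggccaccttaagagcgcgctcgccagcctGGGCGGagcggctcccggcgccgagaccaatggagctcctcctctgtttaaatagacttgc

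The full CRE was in 0 of the 9 member windows and in 1.55% of all 32851 windows of the table. A CRE core was in 5 of 9 member windows, both of Ccnd3 and those of Cdk2, Cdk4 and Cdk6, against 17.8% of all windows. The windows of Ccne1, Cdkn1b and Cdkn2c held none. Cdk4 had 4 E-boxes, the sequence bound by Myc and related factors, and Cdk6 had 1, where 6.02% of all windows held at least 1. The E-box was added to the motifs after these sequences were seen, so this comparison is no test. GC boxes were in 7 of 9 member windows against 32.7% of all windows, with 4 upstream of Ccne1. An E2F site was found only upstream of Cdk2, against 1.86% of all windows. The printed windows were rich in G and C, at 76.0% for Ccne1 and 64.4% for both Cdk4 and Cdkn1b, and no account of base composition was taken in the shares. A match describes the letters of a window, and its part in the signals was not tested.

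**Figure D5:**
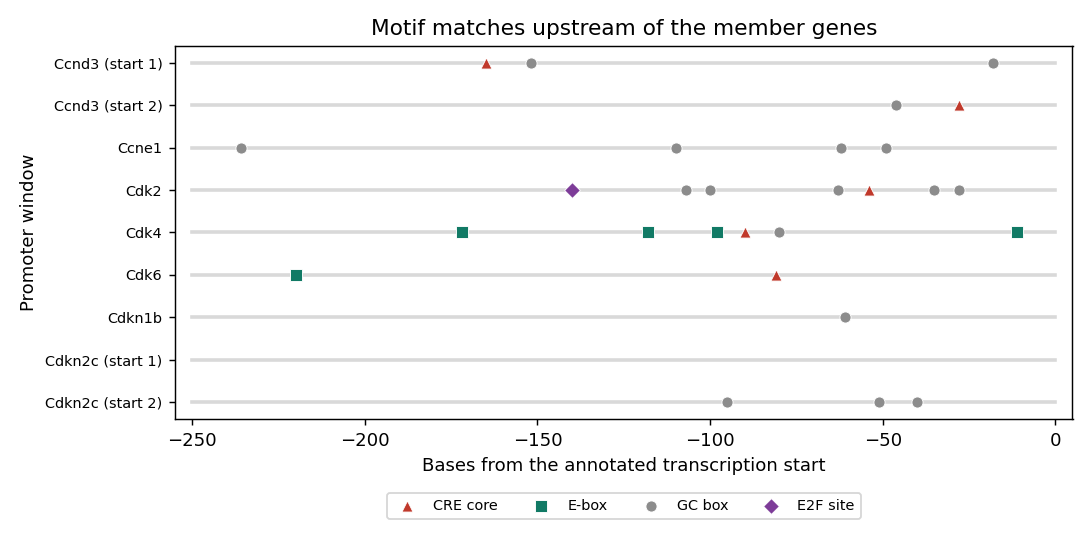
Positions of motif matches in the 250 bases upstream of each of the 9 annotated transcription starts, in bases from the start (horizontal axis), with a row for each start and a marker shape for each motif. Cdk4 carries 4 E-boxes (a motif added after the sequences were seen) and a CRE core, Ccne1 only GC boxes, and the first Cdkn2c start no match.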

How the data were processed

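The deposited table holds 1 intensity value per probe set and array, 22690 in all, 64 of them AFFX controls. Per the submitters' processing notes the authors made these intensities with MAS5, which takes a robust average of a probe set's perfect-match probes, each less a mismatch-based value. The sources used here give neither target value nor detection calls. Names came from the platform annotation, in which, controls aside, 20380 probe sets had 1 symbol, 691 had several and 1555 had none. Each array was scaled to a common mean after trimming 2% at each end, which moved ratios by -0.27%. Signals under the array median were set to it before log2. The brightest probe set by mean log2 signal stood for a gene. Changes were counted at 1.2-fold and 1.5-fold beside their share over all measured probe sets, and no test was possible with 1 array per group. The members, the lists and the size thresholds were chosen with earlier results of these data known. Every member probe set is named, and of each list up to 4 genes with the largest absolute log2 ratio. Simulated data with known changes served to check the procedure. Alternatives covered scaling, floor, log scale and probe set choice. The E-box was added to the motifs after the promoter sequences were seen. The software was Python 3.11.15, pandas 2.3.3, numpy 2.4.6, statsmodels 0.14.6 and matplotlib 3.10.9.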

Additional observations from a re-analysis of the deposited data

How the results depend on the processing

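No paired analysis was possible because each group had 1 array, and for the same reason no replicate could be left out. With scaling to the hybridisation controls the median over the member genes was 0.35 against 0.07, with 9 member probe sets at least 1.2-fold higher in place of 4, 0 at least 1.2-fold lower in place of 1, and 3 past 1.5-fold in place of 0. Relative to the median of all genes, which moved to 0.27, the member median stayed 0.08 higher. The median was 0.04 with array medians and 0.03 with the mean over probe sets. A floor at the 25th percentile, which admits dimmer probe sets, gave a median of 0.13 (0.12 above that of all genes) and 7 member probe sets at least 1.2-fold higher, and a floor at the 75th percentile, which admits fewer, gave 2. Without probe sets that can match several transcripts 0 were at least 1.2-fold lower, since the lower Cdk4 probe set is one of them. Of the 15 measured probe sets, 9 kept their sign under every alternative in which they were measured. The 75th percentile floor left Ccne1, Cdkn1b and the Ccnd2 probe set 1448229_s_at unmeasured. Another 5 changed sign with the hybridisation controls and 1, Ccnd3, with array medians. Low signals, as for Ccne1, and the spread between probe sets, as for Cdk4, limit what single arrays can show.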
